A study of Ovis aries with 2 samples.

Results

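RPTN, PRR9, CTSH and FBP1 are the 4 genes, of 18161 in the table, that were followed here in every cell of single-cell RNA-seq libraries from lamb skin. They were chosen because earlier results of the same libraries had placed them beside the keratins of the inner root sheath (IRS), so their levels in IRS cells are what chose them and are given as a description with no test. Skin from the body side of Hu sheep lambs aged 3 days was the tissue. The straight library came from 3 pooled lambs with straight wool, and the curly library from 3 pooled lambs with curly wool, which the labels also call waved or wavy. Isolated hair follicles and whole skin were dissociated separately and mixed before loading, and the labels name no treatment. With 1 library per wool type there was no spread between lambs, so no test between wool types was possible. All intervals below are 95% intervals that cover counting error only.

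The IRS is the sleeve of cells that surrounds the growing hair shaft, hardens before it and guides it upward. Its cells arise from the matrix at the base of the follicle, make their own set of keratins, fill with trichohyalin granules and are then hardened when trichohyalin is modified by peptidylarginine deiminases and cross-linked by transglutaminases. RPTN encodes repetin, a matrix protein of the fused S100 family to which trichohyalin and filaggrin belong. PRR9 encodes a small proline-rich protein and lies in the cluster of genes for cornified proteins, between LELP1 and LORICRIN by gene order in another sheep assembly, ARS-UI_Ramb_v3.0. CTSH encodes cathepsin H, a lysosomal cysteine protease that is also abundant in macrophages. FBP1 encodes a fructose bisphosphatase, the enzyme that opposes phosphofructokinase in gluconeogenesis, and lies between AOPEP and FBP2 in that order.

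The straight library held 6452 cells and 57956122 UMIs, and the curly library held 7585 cells and 77634565 UMIs. Depth per cell was alike, with a median of 7373.5 UMIs in straight and 7495 in curly cells. Clustering without the 4 genes gave 21 clusters. One of them carried the IRS markers KRT71, KRT25, KRT27 and KRT28 among its leading genes and is called IRS-like, and it held 127 straight cells (1.97%) and 374 curly cells (4.93%). These cells were deeper than the rest, with medians of 15723 and 19746 UMIs. A further cluster, cluster 3, had KRT28 and PRR9 among its leading genes but only 665.5 and 769.5 UMIs per cell in the median, and it was left unnamed. It held 338 straight and 882 curly cells, and its values are given beside those of the IRS-like cells. The libraries shared 70 cell barcodes, of which 1 straight and 5 curly IRS-like cells carried one, and leaving these 6 cells out moved none of the 4 log2 ratios of curly over straight IRS-like cells beyond its interval. Of the IRS keratins, KRT25, KRT27, KRT28 and KRT71 were well detected, KRT26 had no UMI in straight IRS-like cells and 13 UMIs in the curly ones, and KRT72, KRT73, KRT74 and trichohyalin were not analysed here.

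All 4 genes were far higher in IRS-like cells than in the other cells of both libraries. Levels are in CPM, the UMIs of a gene summed over the cells of a class and scaled to 1000000 UMIs of that class. In all, 49 of the 13196 genes with at least 100 UMIs (0.371%) were at least 4-fold higher in IRS-like cells of both libraries, and these 49 include the 4 genes, which were picked for that pattern. Over all 13196 genes the median log2 ratio of IRS-like over other cells was −0.29 in straight and −0.46 in curly cells.

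RPTN stood at 2321.3 CPM (2251.5 to 2392.7) in straight and 3193.1 CPM (3151.7 to 3234.8) in curly IRS-like cells. In all other cells it stood at 36.2 and 80.8 CPM, which gave log2 ratios of 6.0 (5.93 to 6.08) and 5.3 (5.26 to 5.35). By log2 ratio RPTN was gene 7 of 13196 in straight and gene 4 in curly cells, among the keratins KRT71, KRT27 and KRT25. Of all RPTN UMIs, 67.4% of those in straight and 80.0% of those in curly cells were in the IRS-like class. The rest were spread thinly, as a UMI of RPTN was found in 24.1% of straight and 46.8% of curly cells.

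PRR9 stood at 2165.1 CPM (2097.8 to 2234.1) in straight and 1667.9 CPM (1638.0 to 1698.2) in curly IRS-like cells, against 47.7 and 67.6 CPM in the other cells. Its log2 ratios were 5.5 (5.43 to 5.57) and 4.62 (4.58 to 4.67). In summed UMIs cluster 3 came close to the IRS-like class for this gene, with 1371.6 CPM in straight cells and 1710.7 CPM in curly ones. In straight cells 1 cell alone held 322 of the 391 PRR9 UMIs of cluster 3. A PRR9 UMI was found in 18.0% and 28.8% of the cells of this shallow cluster, beside 79.5% and 82.6% of the IRS-like cells. Of all PRR9 UMIs, 59.3% in straight and 71.3% in curly cells lay within the IRS-like class, and 5.93% and 10.3% in cluster 3.

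CTSH stood at 253 CPM (230 to 277) in straight and 417 CPM (402 to 432) in curly IRS-like cells, with 16 and 28.4 CPM in the other cells. The log2 ratios were 3.98 (3.82 to 4.15) and 3.88 (3.79 to 3.96). Of its UMIs, 33.7% in the straight library and 59.7% in the curly one came from IRS-like cells. Its next highest class was immune-like in both libraries, at 112 and 174 CPM, and endothelial-like cells held 59.7 and 79.8 CPM.

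FBP1 stood at 167 CPM (148 to 187) in straight and 204 CPM (193 to 214) in curly IRS-like cells, and at 6.22 and 16.2 CPM elsewhere. The log2 ratios were 4.75 (4.52 to 4.97) and 3.65 (3.54 to 3.76). Of its UMIs, 46.3% in the straight library and 55.9% in the curly one came from this class. Among the other named classes the cycling-like cells were the highest in the curly library at 41.0 CPM, and nearly all of this lay in 1 of the 2 clusters of that class. That cluster, led by FABP7 and DCN, held 13.9 CPM (11.6 to 16.5) in straight cells and 43.7 CPM (40.7 to 46.9) in curly ones. The other, which carries the division genes TOP2A and CENPF, had 1 FBP1 UMI in each library. A UMI of FBP1 was detected in 4.76% of the straight and 10.5% of the curly cells.

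**Figure D1:**
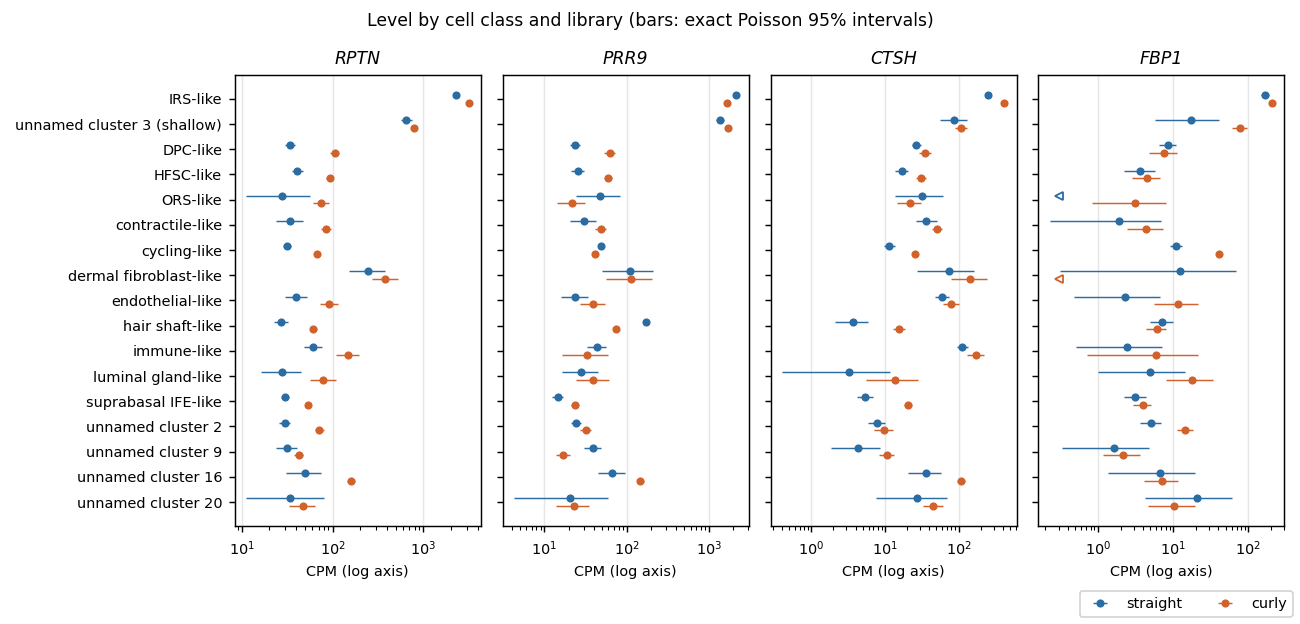
Level of RPTN, PRR9, CTSH and FBP1 in CPM on a log axis for each of 17 cell classes, with blue points for straight and orange points for curly cells, bars for exact Poisson 95% intervals and open triangles at the left edge for 0 UMIs. The IRS-like class is the highest for CTSH and FBP1 in both libraries, for RPTN in both, and for PRR9 in straight cells, while in curly cells PRR9 is at 1710.7 CPM in cluster 3 and 1667.9 CPM in the IRS-like class.

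Markers of immune, macrophage and endothelial cells were low in the IRS-like class. The 6 immune markers summed to 4.98 CPM in straight and 1.12 CPM in curly IRS-like cells, against 239 and 41.1 CPM in the other cells, and PTPRC and CD53 had no UMI there in either library. The 6 macrophage markers summed to 4.98 and 2.11 CPM, against 15.6 and 11.9 CPM in the other cells. Not all of them were clearly lower than elsewhere. CD68 was at 4.43 CPM in straight IRS-like cells beside 4.83 CPM in the other cells. CD14 was at 0.554 and 0.562 CPM beside 0.944 and 0.78 CPM. AIF1 and C1QC were at 0 UMIs in both libraries. This allows up to 1.66 CPM in straight and 0.422 CPM in curly IRS-like cells. CTSH was at 253 and 417 CPM in the same cells. The 6 endothelial markers summed to 2.22 and 2.39 CPM. Markers of the epithelium were not all low. Those of the matrix, from which the IRS arises, summed to 1816.2 CPM in straight and 1723.7 CPM in curly IRS-like cells, beside 1305 and 1867.6 CPM in the other cells. Companion layer markers were at 843 and 531 CPM, beside 7039.1 and 6409 CPM elsewhere, and those of the basal epidermis at 798 and 724 CPM, beside 13895.4 and 14240.4 CPM. Suprabasal markers were at 439 and 676 CPM, beside 7431.2 and 11211.4 CPM. The part of these cells in the levels above was not tested.

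Free RNA in droplets gives UMIs in cells that do not make a gene. RNA from 1 source would keep the same ratio between its genes in every class, so each gene was set against the summed IRS keratins of the same cells. In IRS-like cells there were 121 (117 to 124) RPTN UMIs per 1000 keratin UMIs in straight and 124 (122 to 126) in curly cells. In endothelial-like cells, which should make neither, there were 206 (154 to 270) and 153 (121 to 191), and in hair shaft-like cells 97.7 (81.4 to 116) and 129 (118 to 142). In these classes and in immune-like cells, at 246 and 222, the RPTN ratio stayed within 2.04-fold of that in IRS-like cells, although the IRS keratins themselves were at 194 CPM in straight endothelial-like and 19238.9 CPM in straight IRS-like cells. The lowest RPTN ratio was 52.8 and 90.0, in cycling-like cells. PRR9 in endothelial-like cells was likewise at 123 (83.3 to 174) and 65.9 (45.6 to 92.1) per 1000, beside 113 and 64.7 in IRS-like cells.

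All 4 genes had classes above the IRS-like ratio in both libraries. For RPTN the highest was dermal fibroblast-like, at 417 (255 to 644) per 1000 in straight and 231 (163 to 319) in curly cells, or 3.45-fold and 1.87-fold higher, on 20 and 37 RPTN UMIs. CTSH reached 449 (377 to 531) UMIs per 1000 keratin UMIs in straight and 262 (199 to 339) in curly immune-like cells, against 13.1 and 16.2 in IRS-like cells, which is 34.2-fold and 16.2-fold higher. In endothelial-like cells it was 23.5-fold and 8.26-fold higher. FBP1 in cycling-like cells was at 18.6 (15.5 to 22.1) and 54.2 (50.4 to 58.1) per 1000, or 2.14-fold and 6.86-fold above IRS-like cells, with 126 of its 127 and 773 of its 774 UMIs in the cluster led by FABP7 and DCN. It was above the IRS-like ratio elsewhere too, by 3.43-fold and 4.3-fold in unnamed cluster 2, by 4.98-fold and 1.55-fold in dermal papilla-like cells and by 2.93-fold and 1.61-fold in hair shaft-like cells. Unnamed cluster 20 stood 12.4-fold and 4.52-fold above and luminal gland-like cells 2.77-fold and 4.04-fold, each on 3 FBP1 UMIs in straight and 9 in curly cells.

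PRR9 was above its IRS-like ratio in hair shaft-like cells, by 5.39-fold in straight and 2.4-fold in curly cells, and in cluster 3, by 2.76-fold and 4.41-fold. In the hair shaft-like class much of the PRR9 lay in a handful of cells, more so in straight than in curly cells. There, 6 of 300 straight cells with at least 20 PRR9 UMIs per 10000 held 74.7% of the PRR9 UMIs, 1 of them alone with 375 UMIs, and 6 of 518 curly cells held 40.9%. The same cells had a median of 63.0 and 98.7 IRS keratin UMIs per 10000, against 1.2 and 3.01 in the class as a whole. Their lowest value was 0 in straight and 43.1 in curly cells. In cluster 3, 9 straight cells held 86.7% of the PRR9 UMIs, 1 of them alone with 322, and 71 curly cells held 88.4%. RPTN and CTSH in cluster 3 stayed near the IRS-like ratio, at 1.22-fold and 1.05-fold for RPTN and at 1.51-fold and 1.12-fold for CTSH.

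**Figure D2:**
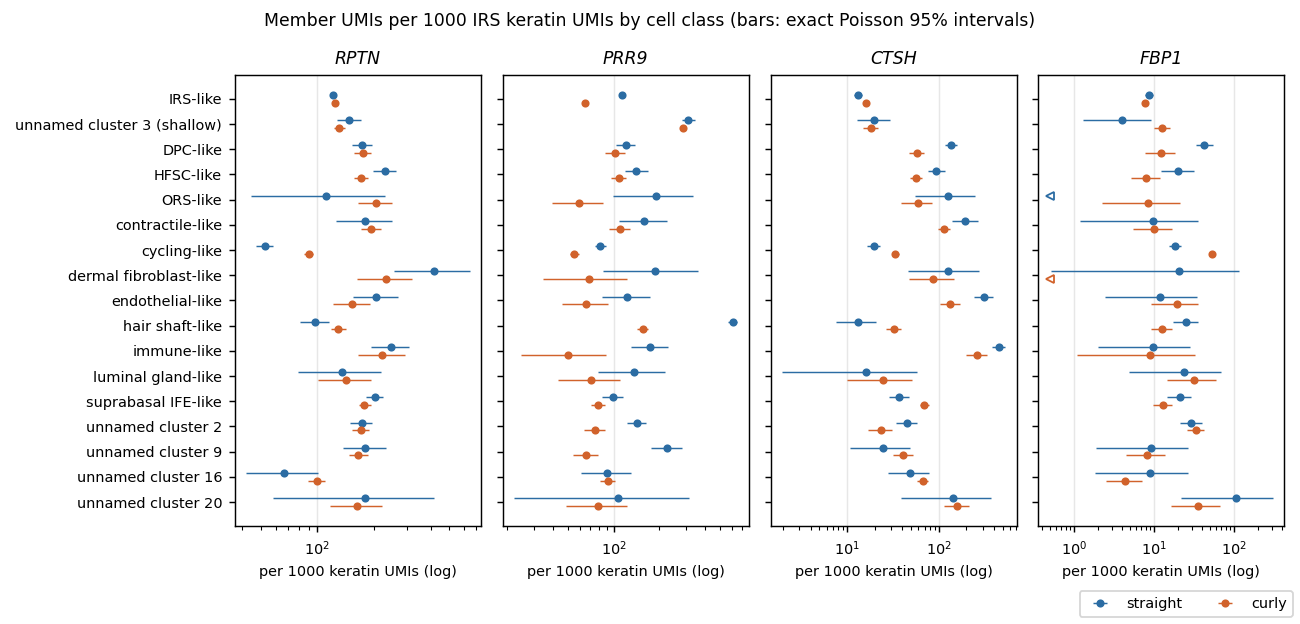
UMIs of each gene per 1000 UMIs of the IRS keratins on a log axis for the same 17 classes, with blue points for straight and orange points for curly cells, bars for exact Poisson 95% intervals and open triangles for 0 UMIs. RPTN is within 2.04-fold of its IRS-like ratio in endothelial-like, immune-like and hair shaft-like cells and 3.45-fold above it in straight dermal fibroblast-like cells, PRR9 is raised in hair shaft-like cells and cluster 3, CTSH in immune-like and endothelial-like cells, and FBP1 in several classes, among them cycling-like cells, where it reached 54.2 per 1000 in the curly library.

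Co-detection was then counted cell by cell at a common depth. Every cell was thinned at random to 2000 UMIs, which kept 5415 straight and 6052 curly cells and left out 1037 and 1533 shallower ones, and the cells were grouped by their IRS keratin UMIs. In cells with no keratin UMI, RPTN was detected in 5.97% (5.22 to 6.79) of the straight and 12.1% (10.8 to 13.5) of the curly cells. Endothelial-like cells, which should lack the gene, had shares of 12.2% and 15.8% at the same thinned depth, from unthinned medians of 5306 and 3827 UMIs. The same cells gave 5.34% and 7.02% for PRR9, 0 of 131 and 1.75% for FBP1, and 8.4% and 17.5% for CTSH. These shares are given for comparison, and their source was not tested. In that class RPTN was 1.7-fold and 1.24-fold above its IRS-like keratin ratio, and CTSH 23.5-fold and 8.26-fold. With 30 to 99 keratin UMIs the RPTN share was 78.9% (54.4 to 93.9) and 76.4% (67.2 to 84.1), and with 100 or more it was 100% in both libraries, in 13 of 13 and 46 of 46 cells.

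PRR9 rose at a lower keratin level than RPTN. At 10 to 29 keratin UMIs it was detected in 63.6% (49.6 to 76.2) of the straight and 52.1% (44.3 to 59.8) of the curly cells, where RPTN was seen in 16.4% (7.77 to 28.8) and 39.6% (32.2 to 47.4). The intervals of the genes did not overlap in straight cells, and overlapped in curly cells. At 100 or more keratin UMIs the PRR9 share was 84.6% and 89.1%. CTSH was at 4.09% (3.47 to 4.78) and 4.15% (3.39 to 5.02) with no keratin UMI, at 20% (10.4 to 33.0) and 26.6% (20.1 to 34.0) with 10 to 29, at 47.4% and 53.8% with 30 to 99, and at 76.9% and 89.1% with 100 or more. From 10 keratin UMIs upward its intervals lay above those of cells without a keratin UMI in both libraries.

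FBP1 did not follow the keratins to the top. Its share was 0.884% and 1.4% in cells with no keratin UMI, peaked at 36.4% (23.8 to 50.4) in straight and 34.3% (27.2 to 42.0) in curly cells with 10 to 29 keratin UMIs, and stood at 28.3% (20 to 37.9) in curly cells with 30 to 99. With 100 or more it was seen in 0 of 13 straight cells, with an interval from 0% to 24.7%, and in 2 of 46 curly cells, or 4.35% (0.531 to 14.8). In the curly library the interval of the last group lay below that of the peak. Thinning is random, and over 20 further draws the FBP1 share of all cells with at least 30 keratin UMIs ranged from 3.33% to 28.1% in straight cells with a median of 12.9%, and from 16.4% to 24.3% in curly cells with a median of 19.6%, against 6.25% and 21.1% in the draw used. The unthinned shares had the same order, with 80.0% and 71.6% at 10 to 29 keratin UMIs and 15.4% and 13% at 100 or more.

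**Figure D3:**
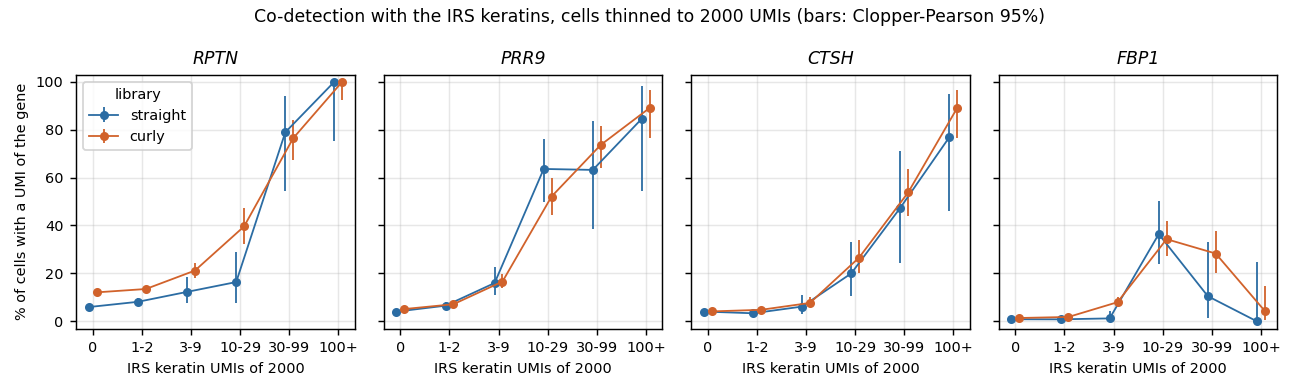
Share of cells with at least 1 UMI of each gene, in percent, against the number of IRS keratin UMIs in cells thinned to 2000 UMIs, with blue for straight and orange for curly cells and bars for Clopper-Pearson 95% intervals. RPTN, PRR9 and CTSH climb to between 76.9% and 100% in the cells richest in keratin, and FBP1 peaks at 36.4% and 34.3% and is at 0% and 4.35% there.

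The same split was seen in levels within the IRS-like class. Its cells were divided by IRS keratin UMIs per 10000 into those under 30, from 30 to 99, from 100 to under 300, and 300 or more, with 31, 45, 31 and 20 straight cells and 70, 133, 101 and 70 curly cells. Keratin level here is an order of cells by product, not a measured time. Of the 20 richest straight cells, 6 had doublet scores in the highest 6% of their library, against 0 of the 70 richest curly cells. The courses below include these 6 cells.

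RPTN was concentrated at the keratin-rich end. Its level was 33.1, 72.6, 934 and 11463.7 CPM along the groups in straight cells, and 45.2, 144, 907 and 14037.8 CPM in curly cells. The last step was 12.3-fold in straight and 15.5-fold in curly cells. RPTN in the keratin-poor group was at or below its level in endothelial-like cells, 39.8 and 91.4 CPM. The 25 straight and 82 curly IRS-like cells with at least 20 RPTN UMIs per 10000 held at least 83.9 and 94.4 keratin UMIs per 10000. In the shallow cluster 3, 14 straight and 107 curly cells reached the same RPTN limit, with a lowest keratin value of 0 in both libraries.

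CTSH rose over the whole range. It went from 5.09 through 124 and 256 to 808 CPM in straight cells and from 61.2 through 136 and 311 to 1347 CPM in curly cells. Its last step was 3.16-fold and 4.33-fold, smaller than that of RPTN in each library.

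PRR9 was already above 1000 CPM in cells with 30 to 99 keratin UMIs per 10000. In curly cells it went from 158 through 1133.3 and 2137.4 to 3368.1 CPM. In straight cells it went from 255 through 1201 to 5357 CPM and then to 2248.5 CPM, which was 2.38-fold lower in the richest group. The straight and curly libraries thus differed in the direction of the last step, with log2 ratios of −1.25 (−1.37 to −1.13) and 0.66 (0.6 to 0.72), and no spread between lambs is available to set beside this. Single cells weighed heavily on these sums, as the 5 cells with the most PRR9 held 47.3% of its UMIs in straight and 28.1% in curly IRS-like cells.

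FBP1 was highest in the middle groups and lowest at the keratin-rich end. In straight cells it went from 48.4 through 198 and 336 to 24.6 CPM, and in curly cells from 156 through 296 and 241 to 49.0 CPM. From 100 to under 300 to the richest group this was 13.7-fold lower in straight cells, with a log2 ratio of −3.77 (−5.01 to −2.75), and 4.92-fold lower in curly cells, with −2.3 (−2.68 to −1.94). The richest straight group held only 8 FBP1 UMIs in 20 cells, and the richest curly group 72 in 70 cells. The median depth of these groups was alike, at 16387 and 14423 UMIs in straight and 21175 and 20104.5 in curly cells.

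KRT28, an acidic keratin of the IRS, and GATA3, a transcription factor that IRS cells need, had a similar course. KRT28 went from 30.6 through 419 and 1673 to 289 CPM in straight cells and from 31.3 through 425 and 929 to 382 CPM in curly cells. GATA3 went from 310 to 132 CPM over the last step in straight cells and from 345 to 114 CPM in curly cells. KRT71 went the other way at that step, from 5220.9 to 29212.2 CPM and from 5880.3 to 36373.7 CPM, as the grouping itself requires of their sum. In the richest group the IRS keratins and RPTN together took 8.53% of all UMIs in straight and 10.7% in curly cells.

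**Figure D4:**
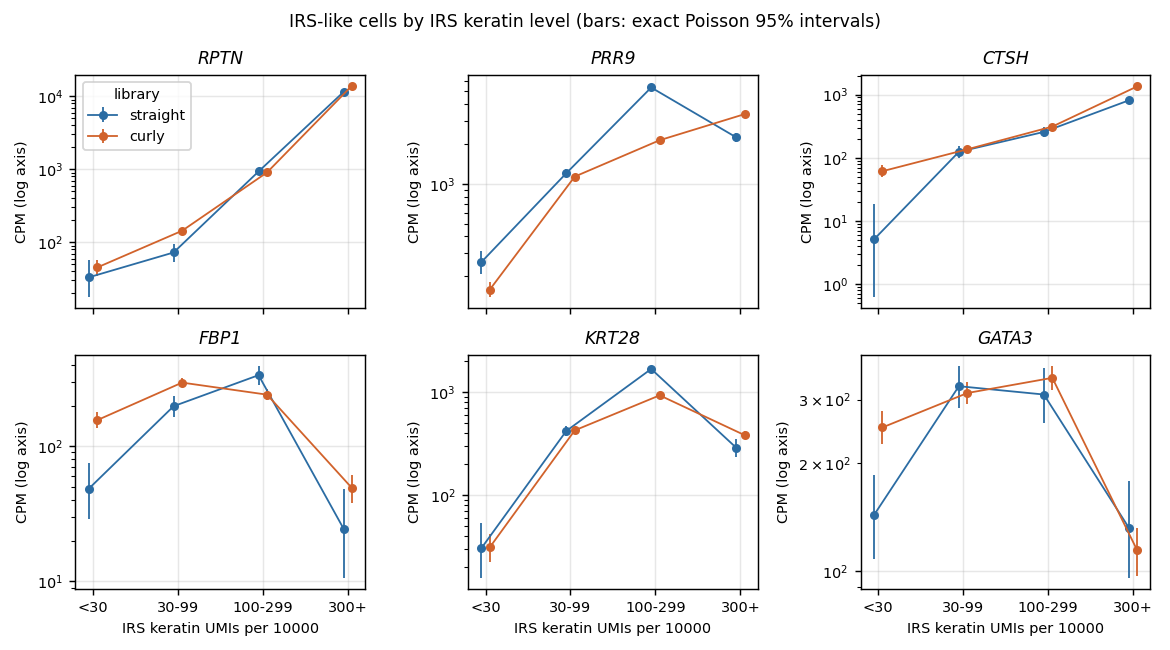
Level in CPM on a log axis of RPTN, PRR9, CTSH, FBP1, KRT28 and GATA3 in IRS-like cells grouped by IRS keratin UMIs per 10000, with blue for straight and orange for curly cells and bars for exact Poisson 95% intervals. RPTN and CTSH climb to the richest group, PRR9 differs between the libraries there, and FBP1, KRT28 and GATA3 drop, FBP1 to 24.6 and 49.0 CPM.

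Cells were next compared 1 by 1, after thinning 81 straight and 305 curly IRS-like cells to 10000 UMIs. RPTN reached at least 20 UMIs in 13 straight and 48 curly cells. Of these, 11 straight (84.6%) and 38 curly cells (79.2%) also held at least 5 CTSH UMIs, against 1.47% and 9.34% of the remaining IRS-like cells. RPTN-rich cells were therefore mostly CTSH-rich cells as well.

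FBP1 and RPTN were seldom high in the same cell. At least 2 FBP1 UMIs were found in 1 of the 13 straight (7.69%) and 8 of the 48 curly RPTN-rich cells (16.7%), against 35.3% and 49.4% of the remaining cells. PRR9 was shared by both kinds of cell. Of the 21 straight and 52 curly cells with at least 20 PRR9 UMIs, 13 (61.9%) and 31 (59.6%) held at least 2 FBP1 UMIs, while 6 (28.6%) and 19 (36.5%) held at least 20 RPTN UMIs.

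Ranks over the same thinned cells followed this pattern. Spearman's rho was 0.7 in straight and 0.58 in curly cells for RPTN with CTSH, and −0.17 and −0.26 for RPTN with FBP1. FBP1 ranked with KRT28, at 0.58 and 0.45, and with GATA3, at 0.32 and 0.38. PRR9 ranked with KRT27, at 0.62 and 0.54. These points are the 81 and 305 cells of 1 library each and share its free RNA, so the values are a description.

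**Figure D5:**
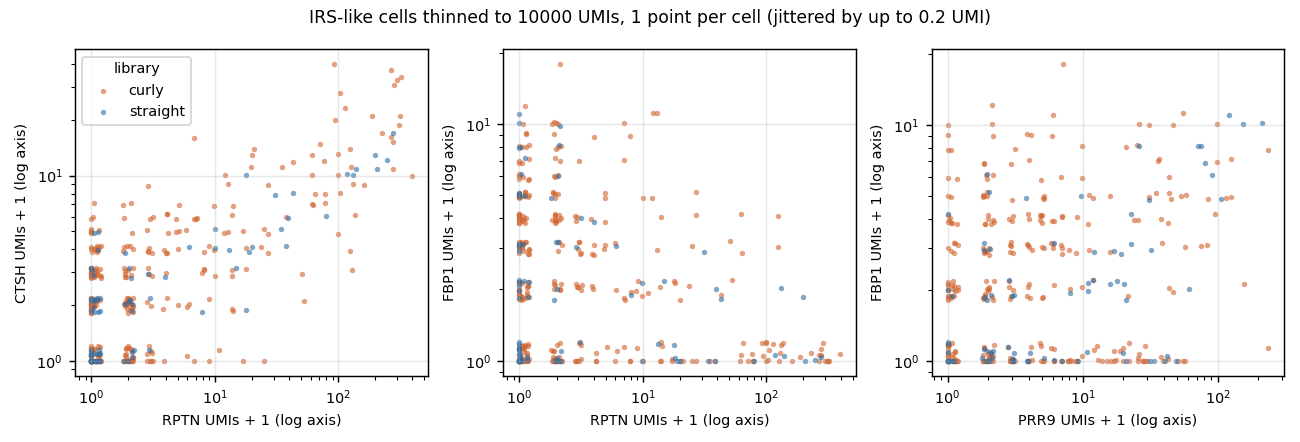
UMIs per IRS-like cell after thinning to 10000 UMIs, with 1 added and both axes on a log scale, for CTSH against RPTN, FBP1 against RPTN and FBP1 against PRR9, with 1 blue point for each of 81 straight cells and 1 orange point for each of 305 curly cells. Cells high in RPTN are high in CTSH and mostly at 0 or 1 UMI of FBP1, while cells high in PRR9 include many with FBP1.

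The cells were also ordered by diffusion pseudotime, using neither RPTN, PRR9, CTSH nor FBP1, from a matrix-like cell, named at a finer clustering, through a cycling-like cluster led by FABP7 and DCN to the IRS-like class. The order held 2108 cells, 1607 of that cluster and 501 IRS-like, and was divided into 5 parts of equal size. FABP7 was highest in the first part, at 863 and 605 CPM, PCNA, a replication gene, in the second, at 309 and 448 CPM, and KRT71 in the last. FABP7 did not fall steadily, with 74.4 and 59.1 CPM in the third part and 325 and 206 CPM in the fourth. In straight cells PCNA was still at 305 CPM in the third part. RPTN stood at 22.3, 20.6, 53.3, 35.1 and 2926.6 CPM along the parts in straight cells and at 57.9, 43.3, 41.6, 131 and 3709.3 CPM in curly cells. PRR9 stood at 19.5, 44.6, 53.9, 117 and 2717.1 CPM in straight cells and at 29.5, 46.4, 52.4, 71.5 and 1913.5 CPM in curly cells, again with most of the rise in the last part. That part was mostly the IRS-like class, with 89 of its 99 straight and 275 of its 323 curly cells. Its levels therefore restate those of the class that chose the genes and are not separate evidence.

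FBP1, PRR9 and CTSH were all higher in the second part than in the first. So were KRT25, KRT28, KRT71 and GATA3 in both libraries, and the step was thus not particular to these members. KRT71 went from 47.0 to 128 CPM in straight and from 112 to 187 CPM in curly cells. GATA3 went from 57.7 to 99.1 CPM and from 70.2 to 168 CPM. RPTN did not rise at this step in either library, and KRT27 rose in straight cells only. FBP1 in curly cells went from 14.2 (10.8 to 18.2) CPM in the first part to 66.3 (59.2 to 73.9) in the second, where only 2 of 277 cells were IRS-like, and stayed at 66.6 and 70.0 CPM before the last part at 194 CPM. In straight cells it went from 4.65 (2.23 to 8.55) to 18.6 (13.2 to 25.6), with no IRS-like cell among the 144 of the second part, and reached 193 CPM at the end. The PRR9 intervals of the first and second parts did not overlap either, at 14.1 to 26.4 and 35.9 to 54.8 CPM in straight cells and 24.6 to 35.2 and 40.5 to 52.9 CPM in curly ones. CTSH went from 3.72 (1.61 to 7.33) to 10.3 (6.38 to 15.7) in straight cells, where the intervals overlapped, and from 18.7 (14.8 to 23.3) to 32.9 (28.0 to 38.5) in curly cells, where they did not.

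The genes most like each member were sought among 13196 genes over 42 sums, 1 for each cluster and library, by Pearson's r of log2 CPM with 1 CPM added. These points share library, depth and free RNA, and r is a description. RPTN was most like KRT71 (0.96), KRT25 (0.94) and KRT27 (0.92), and PRR9 most like KRT25 and KRT71 (0.91 each). CTSH was most like RPTN (0.78), ahead of KRT71 (0.75). FBP1 was most like KRT28 (0.77), LOC101117044 (0.76), PADI1 (0.75), a peptidylarginine deiminase, and LRAT (0.74), a retinol-storing enzyme.

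Some relatives of the 4 genes shared their IRS-like pattern and others did not. Over all 13196 genes 0.371% passed the limit of 4-fold higher in both libraries, and the lists were chosen with earlier results of these data known. Among genes of the fused S100 family with at least 100 UMIs, CRNN (cornulin) was at least 4-fold higher in both libraries, with log2 ratios of 2.65 and 3.49, and FLG (filaggrin) was at 3.94 in straight but −0.4 in curly cells. Of 6 precursors of the cornified envelope only IVL (involucrin) passed, at 3.65 and 2.02, and the median of the 6 was −1.1 and −3.43. Of the hardening enzymes, PADI1 (4.06 and 3.35) and PADI4 (4.36 and 2.77) passed, 2 of 5, while the transglutaminase gene TGM1 stood at 1.53 and 1.2 and TGM3 at −1.32 and −0.9.

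No listed relative of CTSH passed, a count that alone says little, since only 0.371% of all genes passed. Of 14 cathepsins and cystatins none was at least 4-fold higher in both libraries and 4 were at least 4-fold lower in both, with medians of −1.48 and −1.83. Of all 13196 genes, 1516 (11.5%) were at least 4-fold lower in both libraries. Of the cathepsins with many UMIs, CTSB (21659 UMIs) stood at 0.14 and 0.15 and CTSD (50360 UMIs) at 0.56 and 0.31. CTSV (43066 UMIs) was lower in IRS-like cells, at −1.98 and −3.3. CST6, a cystatin, was at −2.94 and −3.69.

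Of 25 genes of glycolysis and gluconeogenesis, the pathway of FBP1, none passed either, beside 0.371% of all genes, so that count alone says little. At least 4-fold lower in both libraries were 2 of the 25, beside 11.5% of all genes. The medians were −0.4 and −0.36, close to those of all genes. ALDOA, the aldolase next to this step, was the highest at 1.76 and 1.38. FBP2, the neighbouring paralog, was at −3.63 and −3.78, on 1 and 2 UMIs in IRS-like cells. Of other genes of gluconeogenesis, PCK1 had 1 and 10 UMIs there, PC 6 and 10, and PCK2 8 and 57. Of 11 regulators of the follicle only GRHL3 passed, at 3.25 and 2.07, and GATA3 stood at 1.8 and 1.51. Of 5 macrophage markers 0 passed and 3 were counted as at least 4-fold lower in both, beside the 11.5% of all genes. These 3, AIF1, C1QA and C1QC, had 0 UMIs in straight IRS-like cells and were counted with 0.5 added to each sum. Read as up to 1.66 CPM, these zeros stand beside 1.87, 3.33 and 3.85 CPM in the other straight cells. A 4-fold drop is thus not shown for them in straight cells.

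Between wool types, no member differed by 2-fold in IRS-like cells. RPTN was higher in curly cells by 0.46 (0.41 to 0.51) on the log2 scale, CTSH by 0.72 (0.58 to 0.87) and FBP1 by 0.29 (0.11 to 0.47), while PRR9 was at −0.38 (−0.43 to −0.32). Of 5059 genes with at least 100 UMIs, 71 (1.4%) were at least 2-fold higher and 162 (3.2%) at least 2-fold lower in curly cells, and 0 of the 4 genes were among either. The median of all 5059 genes was −0.25 with an SD of 0.61, and scaling by the median gave 0.71 for RPTN, −0.13 for PRR9, 0.97 for CTSH and 0.54 for FBP1.

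These differences depended on which IRS-like cells were compared. Among cells with 100 to under 300 keratin UMIs per 10000, RPTN was at −0.04, PRR9 at −1.33, CTSH at 0.28 and FBP1 at −0.48. Among cells with 300 or more, they stood at 0.29, 0.58, 0.74 and 1.0. The richest group made up 15.7% of straight and 18.7% of curly IRS-like cells. RPTN was also carried by few cells, as the 5 cells with the most held 53.9% of its UMIs in straight and 34.7% in curly cells. Lambs, cell numbers and depth differed together with wool type and cannot be told apart from it.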

How the data were processed

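The authors aligned 10× Genomics reads of 1 straight and 1 curly wool library to Oar_rambouillet_v1.0 with Cell Ranger, version 3.0.2 in the submitters' processing notes and 2.2.0 in the methods, and deposited 1 table of 18161 genes in 14037 cells as natural log values of 1 plus UMIs scaled to 10000 per cell. The series record gives 15830 cells, and a minimum of genes per cell named with the study's quality control would leave 8285 of the 14037, so all deposited cells were kept and that minimum was tried as an alternative. UMIs were calculated back from the natural log values, and 100% of 28552149 were whole within 0.01.

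The genes followed here, the gene lists and the named genes (RPTN, PRR9, CTSH, FBP1, the IRS keratins, listed relatives and the 5 genes most like each) were chosen with earlier results of these data known. Libraries were integrated in Seurat 5.3.0 on 2000 variable genes, with the 4 genes removed, and 30 dimensions, and clustered at resolution 0.3, the lowest with at least 19 clusters. A cluster was named for the class with the highest mean log2 marker ratio, of at least 1.5, with at least 3 markers in 10% of its cells. Shallow clusters with fewer than 3 own markers among their 10 leading genes stayed unnamed, a limit set after the data were seen that keeps cluster 3 out of the IRS-like class. Doublets were left in, since the Scrublet threshold called 58 straight and 2 curly cells, and removal of the highest 6% of scores was an alternative.

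UMIs were summed per class and library, with exact Poisson intervals for CPM, Clopper-Pearson intervals for shares and the exact binomial split for ratios, all at 95%. A sum of 0 was read as up to 3 counts. Diffusion pseudotime used scanpy 1.11.5 with 30 neighbours and 10 components. Matrix-like cells were to start the order, but no cluster took that name at resolution 0.3, so it was rooted in a matrix-like cell of resolution 0.8 and run over the cycling-like cluster that held 646 of those 750 cells. The calculations were tested on simulated data.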

Additional observations from a re-analysis of the deposited data

How the results depend on the processing

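No paired analysis was possible because each wool type had 1 library. Of 112 alternative values, 70 stayed within the counting interval of the reported one, 39 moved beyond it and 3 changed sign. The log2 ratio of IRS-like over other cells stayed above 3 for every gene and alternative run. Averaging CPM over cells gave 5.3 and 3.91 (straight and curly) for RPTN, 4.97 and 3.46 for PRR9, 3.33 and 3.24 for CTSH, and 4.44 for FBP1 in straight cells. With the study's minimum of genes per cell it was 5.66 for RPTN and 5.06 for PRR9 in curly cells, and 4.16 and 3.98 for CTSH. Without doublets it was 5.69 and 5.36 for RPTN and 5.81 and 4.69 for PRR9. With cluster 3 counted as IRS-like, which was chosen after seeing the data, it was 5.36 for RPTN in curly cells and 5.65 and 5.25 for PRR9.

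The log2 ratio of curly over straight IRS-like cells was less stable. Among cells with 100 to under 300 keratin UMIs per 10000, also chosen after seeing the data, it changed sign for RPTN (−0.04) and FBP1 (−0.48) and was −1.33 for PRR9 and 0.28 for CTSH. With 300 or more it changed sign for PRR9 (0.58) and was 0.29 for RPTN and 1.0 for FBP1. It was 0.81 for RPTN and 0.97 for CTSH without doublets, which removed 6 of the 20 richest straight cells and 0 of the 70 curly ones. It was 0.59 for RPTN and −0.44 for PRR9 with the minimum of genes, 0.2 and −0.08 when CPM was averaged over cells, and −0.3 for PRR9 with cluster 3. Scaled by the median ratio it was 0.71, −0.13, 0.97 and 0.54 for RPTN, PRR9, CTSH and FBP1.

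In curly cells with at least 30 keratin UMIs of 2000 the shares were 83.6% for RPTN, 78.3% for PRR9 and 64.5% for CTSH. Thinning to 1000 UMIs, with the keratin limit scaled to match, gave 73.1%, 67.4% and 44.6%. Cells with 1000 to under 2000 UMIs entered at that depth, so depth and the set of cells changed together. With at least 20 UMIs in place of 100 per gene, 77 genes were 4-fold higher in IRS-like cells, and 270 were 2-fold higher and 783 lower in curly cells. The causes of these shifts were not tested.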

Other observations

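Random thinning bore on the comparison of single IRS-like cells as well. Over 20 further draws to 10000 UMIs, the share of RPTN-rich cells with at least 2 FBP1 UMIs ranged from 0% to 14.3% in straight cells and from 2.08% to 19.1% in curly cells, with medians of 6.46% and 9.45%, so the reported 16.7% of curly cells is toward the upper end. The remaining cells ranged from 31.3% to 43.3% and from 49.2% to 57.3%. The share of RPTN-rich cells with at least 5 CTSH UMIs ranged from 71.4% to 100% in straight and from 71.4% to 85.4% in curly cells, and that of the remaining cells stayed at or below 4.62% and 10.9%. For PRR9-rich cells, the share with at least 2 FBP1 UMIs ranged from 47.6% to 65.0% in straight and from 51.9% to 67.3% in curly cells. The cells remaining there ranged from 16.9% to 28.3% and from 39.0% to 48.0%.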
